A study of Homo sapiens with 9 samples.

Results

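Messenger RNA of 30 genes of cholesterol synthesis and of its control by sterol regulatory element binding proteins (SREBPs) was measured in HEK293T cells, an established line from human embryonic kidney that expresses SV40 large T antigen. The 30 genes were taken by symbol from a list of the pathway that was drawn up with earlier results of these data known, and all 30 were found among the 58735 genes of the count table. Each library came from cells transfected for 36 h at 10 nM with 1 of 3 Silencer Select siRNAs, namely Negative Control No. 2, an siRNA against PHF12 or an siRNA against SUDS3, and each siRNA had 3 libraries. PHF12 and SUDS3 are subunits of SIN3 histone deacetylase complexes. All 9 libraries therefore share the cell line, the transfection reagent (Lipofectamine RNAiMAX) and the siRNA concentration. The labels name 1 siRNA per target and no untransfected cells, so an effect of a target cannot be told apart from an effect of its siRNA's sequence. The labels do not say that replicates were separate cultures, so p-values measure only the spread between these libraries.

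The pathway starts from acetyl-CoA. Enzymes of the mevalonate arm build isoprenoid units and join them into farnesyl and geranylgeranyl diphosphate, and enzymes of the sterol arm turn farnesyl diphosphate into squalene, lanosterol and cholesterol. When membrane sterol is low, SCAP carries the SREBP precursors from the endoplasmic reticulum to the Golgi, where a pair of proteases, encoded by MBTPS1 and MBTPS2, release the active factor, which binds sterol regulatory elements in promoters of pathway genes. When sterol is high, INSIG1 and INSIG2 hold SCAP in the endoplasmic reticulum. SREBF2 encodes the SREBP most tied to cholesterol synthesis, and SREBF1 encodes isoforms tied more to fatty acid synthesis.

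Promoter sequences of 3 members are shown because SREBF2 is the factor gene, INSIG1 is its feedback inhibitor and a known target, and LSS had the largest difference of the 30 genes between the siRNAs. Each is the RefSeq window (GRCh38.p14) from 250 bases before to 50 bases after the annotated start, printed on the gene's own strand. Capitals mark the core of the sterol regulatory element, searched on both strands as CACNCCAC, and the CCAAT box, to which NF-Y binds. SREBF2 lies at chr22:41832855-41833154 on the plus strand, INSIG1 at chr7:155297628-155297927 on the plus strand and LSS at chr21:46228725-46229024 on the minus strand.
SREBF2: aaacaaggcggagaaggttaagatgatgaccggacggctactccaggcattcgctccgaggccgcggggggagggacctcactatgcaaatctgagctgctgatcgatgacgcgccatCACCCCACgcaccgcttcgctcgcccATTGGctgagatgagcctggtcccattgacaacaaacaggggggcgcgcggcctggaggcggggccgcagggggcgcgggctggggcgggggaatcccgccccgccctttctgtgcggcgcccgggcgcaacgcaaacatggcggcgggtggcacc
INSIG1: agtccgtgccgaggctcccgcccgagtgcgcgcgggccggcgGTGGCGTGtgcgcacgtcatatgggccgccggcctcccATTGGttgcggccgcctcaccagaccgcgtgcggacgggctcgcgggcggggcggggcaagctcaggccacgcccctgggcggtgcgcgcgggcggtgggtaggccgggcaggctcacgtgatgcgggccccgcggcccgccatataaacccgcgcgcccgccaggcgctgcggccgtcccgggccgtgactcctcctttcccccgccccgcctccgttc
LSS: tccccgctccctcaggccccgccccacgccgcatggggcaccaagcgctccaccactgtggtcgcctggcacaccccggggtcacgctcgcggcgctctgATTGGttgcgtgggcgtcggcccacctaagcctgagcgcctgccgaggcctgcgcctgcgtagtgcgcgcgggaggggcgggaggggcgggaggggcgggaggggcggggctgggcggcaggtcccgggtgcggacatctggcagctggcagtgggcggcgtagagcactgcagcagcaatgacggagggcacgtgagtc
The RefSeq table held 27 of the 30 genes in 35 windows. The core CACNCCAC was found in 4 of the 27 genes (IDI1, INSIG1, SC5D and SREBF2), or 14.8%, and in 7.05% of the 27305 genes with a window. The longer letters TCACNCCAC, which contain that core, were found in SREBF2 alone of the 27 and in 1.39% of all genes. CCAAT stood in 19 of the 27 (70.4%) and in 39.7% of all genes, and the GC box GGGCGG in 23 (85.2%) and in 48.3%. The 27305 genes include many that were not tested here, whereas all members were tested. Among tested genes with a window, 8836 held the GC box and 2685 did not, so most tested genes held it. CCAAT stood in 4948 tested genes and was absent from 6573. A match is a description of these letters and not a measured binding site.

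Short 3′ UTR windows are shown because a 6-base sequence for each siRNA had been picked, in an earlier analysis of these same fold changes, as the one most tied to lower expression. Such letters are of the kind that an siRNA strand can pair with through its seed, but neither siRNA's sequence was used here. Those for the PHF12 siRNA are AATCAC and for the SUDS3 siRNA TACATT, in capitals below, within the longest GENCODE 29 3′ UTR of each gene, read 5′ to 3′ on the transcript's strand. The first 4 hold AATCAC and the last 3 hold TACATT. Only members that fell with the siRNA in question were picked for display. MVK and STARD4 for AATCAC and SC5D for TACATT fell as well but are not shown for those letters. The holders that did not pass or rose were CYP51A1 and INSIG2 for AATCAC with the PHF12 siRNA. For TACATT with the SUDS3 siRNA they were HMGCS1, NSDHL, SREBF1, SOAT1, INSIG2 and SCAP.
DHCR7: tccagtacctAATCACgctctgttcc
LSS: acagacagtgAATCACagagtctgcc
SREBF2: ggacgtctgcAATCACtgtggccatc
SOAT1: cttaggaagaAATCACttaaatacct
LBR: ccatttaaagTACATTtatgttttat
MBTPS2: accatgtctaTACATTtattctgttc
STARD4: gaggcaaaaTACATTcaaacttgta
The DHCR7 match lay at bases 152 to 157 of a 3′ UTR of 961 bases. The LSS, LBR and MBTPS2 matches shown are each the first of 2 and the SOAT1 match the first of 3. STARD4 also holds AATCAC, and SOAT1 also holds TACATT 2 times. The values that go with these matches are given after the results by role.

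The library totals ran from 37962926 to 50946148 counts, and 18088 genes had enough counts to be tested, all 30 members among them. Of the counts above 0, 96.1% were multiples of 4, and among counts of 1 to 50 the share was 99.7%, so the number of independent fragments may be nearer to the counts divided by 4. Levels are in CPM (counts scaled to a library's effective total), scaled by trimmed mean of M values, and differences are log2 fold changes with their standard errors (SE) from edgeR's quasi-likelihood fit over all tested genes. A gene is said to have risen or fallen only where its Benjamini-Hochberg adjusted p over all tested genes was under 0.05. In bulk RNA, fewer cells with a transcript and less of it per cell cannot be told apart. Markers of other cell types were low, with the summed hepatocyte markers at 0 to 0.422 CPM and SERPINA1, PTPRC, CD3E, HBB, ADIPOQ, LEP and THY1 at 0 in every library. The summed fibroblast markers, nearly all of it COL1A1 (11.2 to 12.1 CPM in controls), ran from 11.5 to 12.5 CPM in control libraries, from 16.5 to 18.4 with the PHF12 siRNA and from 20.6 to 23.2 with the SUDS3 siRNA, and the part of this in the results was not tested. COL1A2 and DCN were at or near 0.

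PHF12 gave 50.3, 50.5 and 48.8 CPM in the control libraries and 27.9, 24.5 and 28.3 with its siRNA, a log2 fold change of -0.89 ± 0.06 (SE, edgeR adjusted p = 1.9e-14). SUDS3 gave 107.5, 114.0 and 111.8 CPM in controls and 21.1, 22.3 and 22.9 with its siRNA, a log2 fold change of -2.33 ± 0.05 (adjusted p = 1.8e-28). SUDS3 also fell with the PHF12 siRNA, to 81.4, 80.1 and 81.5 CPM (-0.46 ± 0.05, adjusted p = 6.8e-10). PHF12 rose with the SUDS3 siRNA, to 59.5, 62.0 and 62.9 CPM (0.30 ± 0.06, adjusted p = 7.2e-05). Both comparisons with control use the same 3 control libraries, so they are not independent of each other.

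Levels of different genes were compared as CPM per kilobase of the gene's merged exons. Among the members in control libraries, INSIG1 was highest at 81.8 CPM per kilobase, followed by LBR at 67.6, FDPS at 51.7 and EBP at 37.4. The lowest were MVK at 3.82, HSD17B7 at 3.52 and CYP51A1 at 0.909. CYP51A1, the lanosterol demethylase, had only 3.26 ± 0.22 CPM (SD, n = 3), and the same-strand transcripts AC000120.2 and AC000120.3 overlap it, so its counts may be split between gene models. The pseudogenes CYP51A1P1, CYP51A1P2 and CYP51A1P3 are also annotated, to which some of its reads could be assigned. Its place as the lowest member may therefore reflect an undercount, which was not tested. SREBF2, at 16.8 CPM per kilobase, stood above SREBF1 at 5.36.

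**Figure D1:**
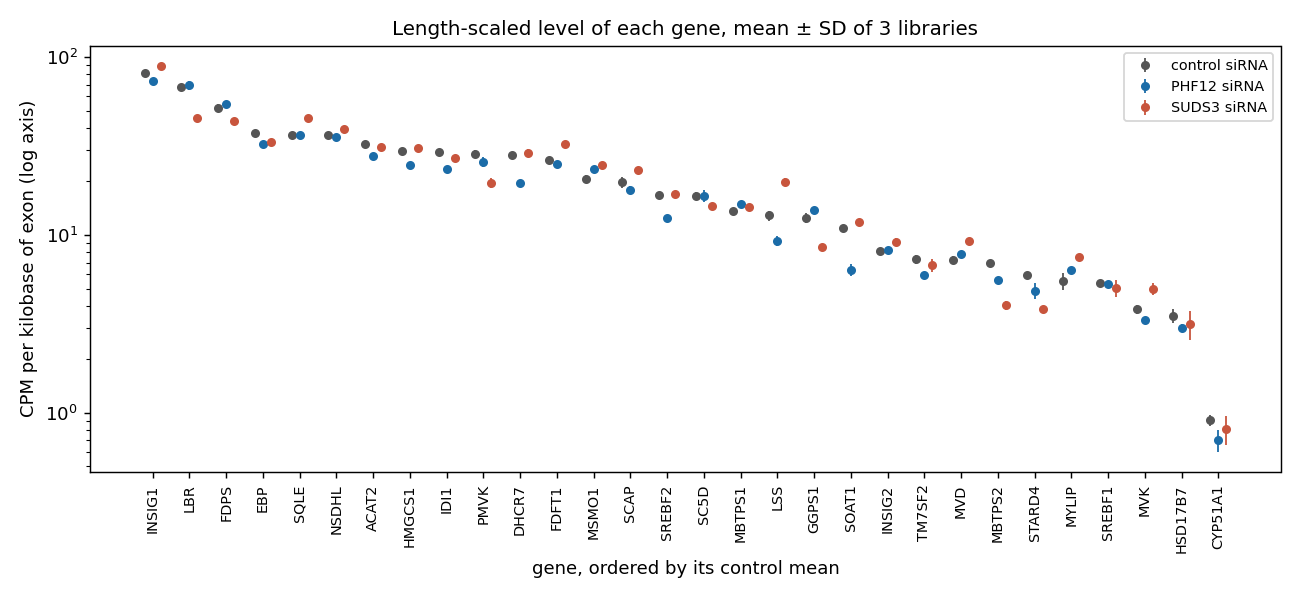
Mean CPM per kilobase of merged exon, with SD of 3 libraries, for each of the 30 genes in cells given control, PHF12 or SUDS3 siRNA, on a log axis. Genes are ordered by the control mean, from INSIG1 at 81.8 to CYP51A1 at 0.909 CPM per kilobase.

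With the PHF12 siRNA, the changes in the pathway were mostly decreases. SOAT1, DHCR7, LSS and SREBF2 fell most, by 0.79, 0.52, 0.48 and 0.43 on the log2 scale. MSMO1 (0.19) and MBTPS1 (0.12) were the 2 genes that rose. In all, 14 of the 30 members fell, 2 rose and 14 did not pass. Among all 18088 genes, 31.9% passed, with 14.8% rising and 17.1% falling, while 53.3% of the members passed. The members' median log2 fold change was -0.16, with a range of -0.79 to 0.21, and that of all tested genes -0.00. In size, changes of the members were not larger, with a median absolute log2 fold change of 0.194 against 0.209 over all tested genes. Here and below, passing shares are not matched for count level, on which the power to pass depends. Under upper-quartile scaling the share of all calls that were increases went from 46.4% to 56.9%, and 5 members rose and 12 fell.

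With the SUDS3 siRNA, members moved in both directions. LSS (0.63), MYLIP (0.44), MVK (0.38) and MVD (0.36) rose most. MBTPS2, STARD4, LBR, GGPS1 and PMVK fell most, by 0.79, 0.64, 0.57, 0.54 and 0.54 on the log2 scale. Of the 30 members, 10 rose, 9 fell and 11 did not pass. Of all tested genes, 38.7% passed, with 19.6% rising and 19.2% falling, against 63.3% of the members. Upper-quartile scaling moved the share of calls that were increases from 50.5% to 44.2%. The median over members was 0.03 and over all genes -0.02. The median absolute log2 fold change was 0.180 over members and 0.241 over all tested genes, so members that passed more often did not change more in size.

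The SUDS3 and PHF12 libraries were also compared directly. LSS was 2.16-fold higher with the SUDS3 siRNA (log2 1.11), SOAT1 followed at 0.89, MVK at 0.59 and DHCR7 at 0.57, while GGPS1 (-0.69), LBR (-0.60) and MBTPS2 (-0.47) were lower. In this comparison 15 members were higher, 7 lower and 8 did not pass, with a median of 0.18 over the members and -0.01 over all genes. The background was 43.9% passing, 22.7% higher and 21.1% lower, and 73.3% of the members passed. Median absolute log2 fold changes were close, at 0.297 over the members and 0.285 over all tested genes. Upper-quartile scaling moved the share of calls that were increases from 51.8% to 41.2%.

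**Figure D2:**
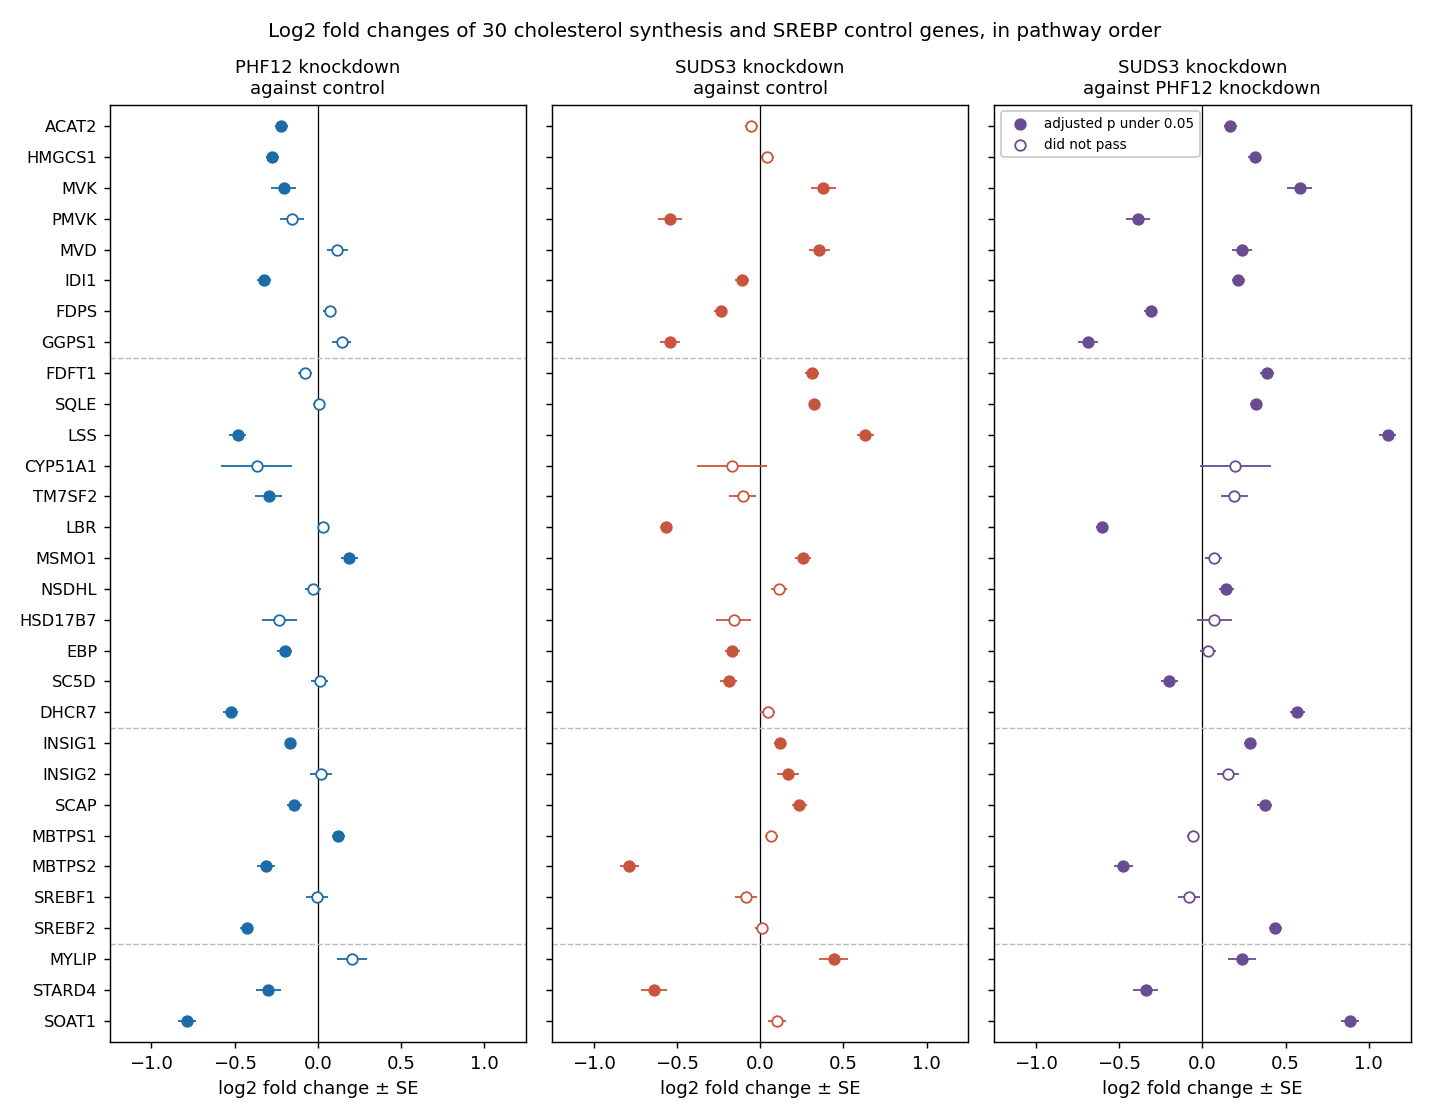
Log2 fold change with SE for the 30 genes in pathway order in the 3 comparisons, with filled points for adjusted p under 0.05 and dashed lines between the mevalonate arm, the sterol arm, SREBP control and the last 3 genes. LSS lies at -0.48 with the PHF12 siRNA, at 0.63 with the SUDS3 siRNA and at 1.11 between them.

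The summed level of all 30 genes ran from 2901 to 2936 CPM in controls, from 2645 to 2691 with the PHF12 siRNA and from 2890 to 2920 with the SUDS3 siRNA. The PHF12 libraries lay below the others without overlap, while control and SUDS3 libraries overlapped. For the 7 SREBP control genes the ranges were 806 to 846, 749 to 757 and 858 to 865 CPM in that order. These sums are led by the most abundant genes, such as LBR and INSIG1.

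SREBF2 (chr22:41833079-41907308) gave 132.4, 125.1 and 124.5 CPM in the control libraries, 94.7, 93.4 and 95.8 with the PHF12 siRNA and 127.4, 130.2 and 127.0 with the SUDS3 siRNA. Every PHF12 library lay below every control library, and the SUDS3 libraries overlapped the controls. SREBF2 changed by -0.43 ± 0.04 (log2) with the PHF12 siRNA (edgeR adjusted p = 6.8e-11) and 0.01 with the SUDS3 siRNA, with a 95% interval of -0.07 to 0.09. Between the siRNAs SREBF2 was higher by 0.44 ± 0.04 with SUDS3 knockdown (adjusted p = 1.7e-11). SREBF1 (chr17:17810399-17837002) gave 45.0, 41.95 and 42.1 CPM in controls, 43.0, 42.5 and 43.1 with the PHF12 siRNA and 41.9, 43.9 and 35.6 with the SUDS3 siRNA. The groups overlapped, and the 95% intervals ran from -0.14 to 0.13 with the PHF12 siRNA and from -0.22 to 0.05 with the SUDS3 siRNA. SUDS3 library 3 was the lowest of the 9 for SREBF1.

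The INSIG genes encode the retention proteins of SCAP. INSIG1 (chr7:155297776-155310235), itself a target of SREBPs, gave 302.1, 300.03 and 293.9 CPM in controls, 254.7, 276.7 and 266.8 with the PHF12 siRNA and 320.8, 322.8 and 328.4 with the SUDS3 siRNA. The 3 groups did not overlap. INSIG1 fell by 0.17 ± 0.03 with the PHF12 siRNA (edgeR adjusted p = 7.8e-05), rose by 0.12 ± 0.03 with the SUDS3 siRNA (adjusted p = 0.0032) and was higher by 0.28 ± 0.03 in SUDS3 than in PHF12 libraries (adjusted p = 2.3e-09). INSIG2 gave 32.6, 33.0 and 31.0 CPM in controls, 31.0, 33.6 and 33.2 with the PHF12 siRNA and 35.0, 35.6 and 38.1 with the SUDS3 siRNA. Its rise of 0.17 with the SUDS3 siRNA (adjusted p = 0.038) ended without control library 1, 2 or 3 (adjusted p = 0.0608, 0.0551 and 0.13) and without SUDS3 library 3 (0.173), and also under upper-quartile scaling (0.0886) and without the filter on low counts (0.0551). Its value was 0.02 with the PHF12 siRNA.

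SCAP (chr3:47413694-47477126), the sterol sensor and escort protein, gave 128.2, 135.4 and 117.5 CPM in controls, 121.0, 109.8 and 115.1 with the PHF12 siRNA and 154.1, 147.9 and 146.7 with the SUDS3 siRNA. Control library 3 lay below PHF12 library 1, whereas every SUDS3 library lay above all others. SCAP fell by 0.14 ± 0.05 with the PHF12 siRNA (edgeR adjusted p = 0.014), a call that ended without control library 2 (-0.09, adjusted p = 0.183) or PHF12 library 2 (-0.11, adjusted p = 0.111) and under upper-quartile scaling (adjusted p = 0.083) or in limma on log2 TPM (0.128). The rise of 0.23 ± 0.04 with the SUDS3 siRNA (adjusted p = 5.5e-05) held in those settings.

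Of the proteases that release SREBPs, MBTPS2 (chrX:21839636-21885424) fell with both siRNAs. MBTPS2 gave 63.3, 62.5 and 60.3 CPM in controls, 50.7, 49.5 and 49.8 with the PHF12 siRNA and 35.3, 34.5 and 38.3 with the SUDS3 siRNA. The 3 groups did not overlap, and the SUDS3 libraries were the lowest. Its log2 fold changes were -0.31 ± 0.06 (edgeR adjusted p = 2.4e-05) and -0.79 ± 0.06 (adjusted p = 8.0e-14), and the difference between the siRNAs was -0.47 ± 0.06 (adjusted p = 7.9e-09). YY2, a gene on the same strand, overlaps MBTPS2, so reads of the 2 could be mixed. MBTPS1, the protease that cuts first, ran from 136.8 to 142.2 CPM in controls and from 150.9 to 153.4 with the PHF12 siRNA, where it rose by 0.12 (adjusted p = 0.0090). With the SUDS3 siRNA its value of 0.07 did not pass.

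In the mevalonate arm, 4 of 8 genes fell and none rose with the PHF12 siRNA, while 2 rose and 4 fell with the SUDS3 siRNA. Over all tested genes the shares were 17.1% falling and 14.8% rising, and 19.2% falling and 19.6% rising. ACAT2, which joins acetyl-CoA units, fell by 0.22 with the PHF12 siRNA (edgeR adjusted p = 2.9e-05), from 132.3 to 144.9 CPM in controls to 117.7 to 121.9. HMGCS1, the next enzyme, ran from 139.7 to 139.9 CPM in controls, from 113.5 to 119.0 with the PHF12 siRNA and from 140.1 to 150.4 with the SUDS3 siRNA. It fell by 0.27 with the PHF12 siRNA (adjusted p = 6.6e-07), and neither gene passed with the SUDS3 siRNA (-0.05 and 0.04). IDI1, the isomerase of isopentenyl diphosphate, fell by 0.32 (adjusted p = 5.1e-08) with the PHF12 siRNA. Its fall of 0.11 with the SUDS3 siRNA (adjusted p = 0.034) ended without control library 2 (adjusted p = 0.16), control library 3 (0.0967), and SUDS3 library 1, 2 or 3 (0.0658, 0.0571 and 0.137). That call also ended under RLE scaling (0.0537), without the filter on low counts (0.0741) and in limma on log2 TPM (0.11).

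MVK (chr12:109573255-109598117), mevalonate kinase, gave 25.2, 25.8 and 23.2 CPM in controls, 22.04, 21.9 and 20.5 with the PHF12 siRNA and 31.6, 34.9 and 30.2 with the SUDS3 siRNA. The groups did not overlap. MVK rose by 0.38 ± 0.08 with the SUDS3 siRNA (edgeR adjusted p = 9.7e-05) and was higher by 0.59 ± 0.08 in SUDS3 than in PHF12 libraries (adjusted p = 4.5e-08). Its fall of 0.21 ± 0.08 with the PHF12 siRNA (adjusted p = 0.038) ended without control library 1 or 2 (adjusted p = 0.102 and 0.15) and without PHF12 library 1, 2 or 3 (0.0513, 0.0583 and 0.149). It also ended under upper-quartile scaling (0.0997), without the filter on low counts (0.0588), with 2 groups only (0.0511) and in limma on log2 TPM (0.105). MMAB lies on the opposite strand and overlaps MVK. PMVK (chr1:154924734-154936991), phosphomevalonate kinase, gave 38.7, 35.5 and 35.7 CPM in controls, 35.2, 32.4 and 31.0 with the PHF12 siRNA and 23.5, 25.3 and 26.8 with the SUDS3 siRNA. Its SUDS3 libraries lay below all others, with a log2 fold change of -0.54 ± 0.07 (adjusted p = 1.2e-07). PMVK was at -0.16 with the PHF12 siRNA and did not pass, except without PHF12 library 1 (-0.21, adjusted p = 0.0435). MVD, the decarboxylase that follows these kinases, ran from 32.3 to 36.0 CPM in controls and from 43.0 to 44.4 with the SUDS3 siRNA, where it rose by 0.36 (adjusted p = 1.4e-05). Consecutive steps of the arm thus moved in opposite directions with the SUDS3 siRNA, MVK and MVD up and PMVK down.

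The prenyl diphosphate synthases FDPS and GGPS1 were lower with the SUDS3 siRNA. GGPS1 (chr1:235327350-235344532), which makes geranylgeranyl diphosphate, gave 49.3, 49.0 and 44.2 CPM in controls, 51.5, 53.6 and 52.4 with the PHF12 siRNA and 32.3, 33.0 and 32.7 with the SUDS3 siRNA. All 3 SUDS3 libraries lay below the rest, and the PHF12 libraries lay above the controls. GGPS1 fell by 0.54 ± 0.06 with the SUDS3 siRNA (edgeR adjusted p = 2.5e-09). Its value of 0.14 ± 0.06 with the PHF12 siRNA did not pass (adjusted p = 0.054) but passed without control library 1 (0.17, adjusted p = 0.0476), SUDS3 library 2 (0.0469) or SUDS3 library 3 (0.0499). It also passed under RLE scaling (0.0369) and upper-quartile scaling (0.013), in DESeq2 (0.0245), with 2 groups only (0.0395), with a replicate block (0.0494) and with counts divided by 4 (0.0346). ARID4B on the opposite strand and TBCE on the same strand overlap GGPS1. FDPS, which makes farnesyl diphosphate, ran from 184.6 to 203.3 CPM in controls and from 156.4 to 168.8 with the SUDS3 siRNA, where it fell by 0.24 (adjusted p = 5.2e-06). FDPS was at 0.07 with the PHF12 siRNA and passed only without control library 1 (0.11, adjusted p = 0.0314) and under upper-quartile scaling (0.0248). FDPS has 8 annotated pseudogenes, to which some of its reads could be assigned.

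**Figure D3:**
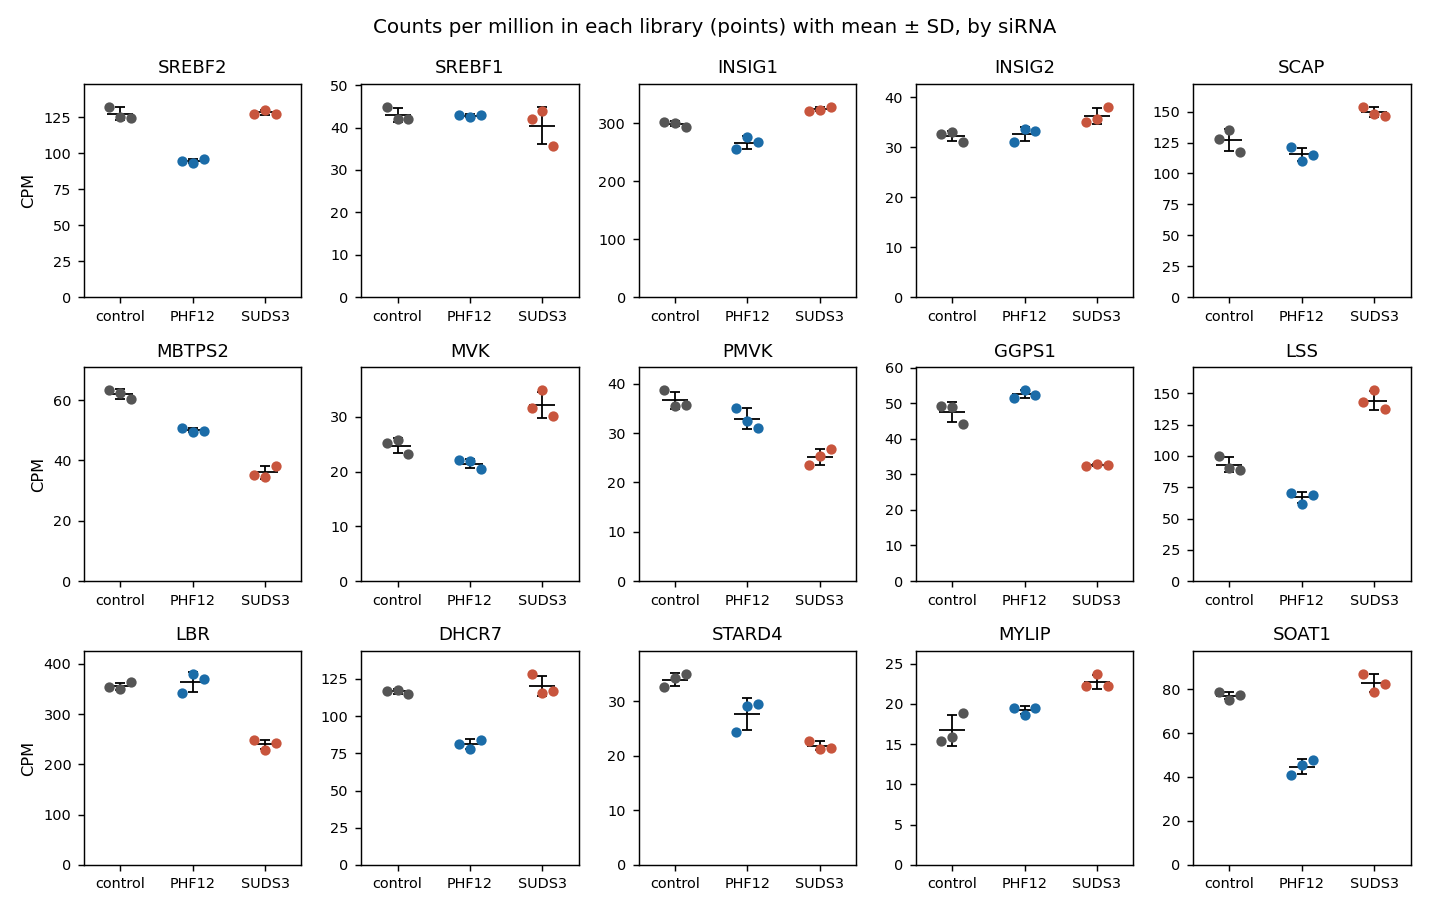
CPM in each library (points) with mean and SD for 15 of the genes, by siRNA, on axes that start at 0. LSS lies from 61.8 to 70.1 CPM with the PHF12 siRNA, from 89.0 to 99.998 in controls and from 137.7 to 152.5 with the SUDS3 siRNA.

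In the sterol arm, 4 of 12 genes fell and 1 rose with the PHF12 siRNA, while 4 rose and 3 fell with the SUDS3 siRNA, where 19.6% of all tested genes rose and 19.2% fell. The passing shares of this arm, 41.7% and 58.3%, stood beside 31.9% and 38.7% of all genes. The first enzymes of the arm, squalene synthase (FDFT1) and squalene epoxidase (SQLE), rose with the SUDS3 siRNA. FDFT1 went from 131.3 to 141.6 CPM in controls to 168.6 to 171.3 (0.31, edgeR adjusted p = 5.8e-08), and SQLE from 152.7 to 160.0 CPM to 193.8 to 197.9 (0.33, adjusted p = 2.0e-09). The values were -0.08 and 0.01 with the PHF12 siRNA, with 95% intervals of -0.16 to 0.00 and -0.07 to 0.08.

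LSS (chr21:46188141-46228824), lanosterol synthase, gave 99.998, 90.5 and 89.0 CPM in controls, 70.1, 61.8 and 68.6 with the PHF12 siRNA and 142.8, 152.5 and 137.7 with the SUDS3 siRNA. The 3 groups were separate, with the controls between the others. LSS fell by 0.48 ± 0.05 with the PHF12 siRNA (edgeR adjusted p = 1.3e-09) and rose by 0.63 ± 0.05 with the SUDS3 siRNA (adjusted p = 1.0e-12). The direct difference was 1.11 ± 0.05 (adjusted p = 8.5e-20), and these calls held without each library in turn.

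Lanosterol is trimmed and rearranged by the enzymes that follow. CYP51A1, with 2.22 to 3.47 CPM over all libraries, did not pass in any comparison, and its 95% interval with the PHF12 siRNA ran from -0.80 to 0.06. A pair of sterol C14 reductases act next, TM7SF2 and LBR, and LBR is also a receptor of the inner nuclear membrane that binds lamin B. LBR (chr1:225401502-225428925) gave 353.5, 350.0 and 363.1 CPM in controls, 341.4, 379.5 and 370.7 with the PHF12 siRNA and 247.6, 229.4 and 242.8 with the SUDS3 siRNA. The PHF12 libraries overlapped the controls, and the SUDS3 libraries lay below both. LBR fell by 0.57 ± 0.04 with the SUDS3 siRNA (edgeR adjusted p = 1.7e-15) and was at 0.03 with the PHF12 siRNA. TM7SF2, the other reductase, went from 23.4 to 26.3 CPM in controls to 19.6 to 21.3 with the PHF12 siRNA (-0.30, adjusted p = 0.0044) and to 21.2 to 25.1 with the SUDS3 siRNA (-0.10, not passed). Its difference between the siRNAs, 0.19, passed only without PHF12 library 2 (0.23, adjusted p = 0.044) or SUDS3 library 3 (0.25, adjusted p = 0.0224). VPS51 overlaps TM7SF2 on the same strand.

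The C4 demethylation enzymes MSMO1, NSDHL and HSD17B7 had log2 fold changes no larger than 0.26 in either direction. MSMO1 rose with both siRNAs, from 56.85 to 62.9 CPM in controls to 67.5 to 68.0 (0.19, edgeR adjusted p = 0.0035) and 68.2 to 72.6 (0.26, adjusted p = 8.4e-05). NSDHL did not pass against control, with values of -0.03 for the PHF12 siRNA and 0.11 for the SUDS3 siRNA. The latter value passed without control library 2 (0.14, adjusted p = 0.0369), under relative log expression (RLE) scaling (0.0408), in DESeq2 (0.0256), with a replicate block (0.0451) and in limma on log2 TPM (0.0216). It was higher by 0.14 in SUDS3 than in PHF12 libraries (adjusted p = 0.012), but not without PHF12 library 3 (0.0656) or SUDS3 library 2 (0.0522), nor under upper-quartile scaling (0.08, adjusted p = 0.195). HSD17B7, which has 2 annotated pseudogenes, was at -0.23 and -0.16 and did not pass. It passed with the PHF12 siRNA without control library 1 (-0.30, adjusted p = 0.0489) and with the SUDS3 siRNA without SUDS3 library 1 (-0.32, adjusted p = 0.0175).

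DHCR7 (chr11:71428193-71452868), the reductase of the last step to cholesterol, gave 117.1, 117.8 and 115.0 CPM in controls, 81.3, 77.8 and 84.3 with the PHF12 siRNA and 128.2, 115.9 and 117.2 with the SUDS3 siRNA. Its PHF12 libraries lay below the other 6, which overlapped. DHCR7 fell by 0.52 ± 0.04 with the PHF12 siRNA (edgeR adjusted p = 5.9e-12) and was at 0.05 with the SUDS3 siRNA, with a 95% interval of -0.04 to 0.14. The steps just before it changed less. EBP, the sterol isomerase, went from 85.6 to 92.5 CPM in controls to 76.3 to 80.1 with the PHF12 siRNA (-0.20, adjusted p = 0.00093) and to 77.3 to 83.3 with the SUDS3 siRNA (-0.17, adjusted p = 0.0044), a call that ended without SUDS3 library 2 (-0.13, adjusted p = 0.0588). SC5D, a desaturase, fell by 0.19 with the SUDS3 siRNA (adjusted p = 0.0031), from 87.2 to 96.5 CPM to 77.9 to 84.4, a call that ended in limma on log2 TPM (0.0639), and was at 0.01 with the PHF12 siRNA.

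The last 3 genes act on uptake, transport and storage. SOAT1 (chr1:179293714-179358680), which esterifies cholesterol for storage, gave 78.5, 75.2 and 77.1 CPM in controls, 40.9, 45.4 and 47.7 with the PHF12 siRNA and 86.8, 78.7 and 82.4 with the SUDS3 siRNA. The PHF12 libraries were the lowest and did not overlap the others, with a log2 fold change of -0.79 ± 0.05 (edgeR adjusted p = 2.6e-14), and SOAT1 was higher by 0.89 ± 0.05 in SUDS3 than in PHF12 libraries (adjusted p = 3.9e-16). With the SUDS3 siRNA the value of 0.10 did not pass, although all 3 libraries lay above the controls. STARD4, a soluble sterol carrier, gave 32.6, 34.3 and 34.9 CPM in controls, 24.3, 29.1 and 29.5 with the PHF12 siRNA and 22.7, 21.3 and 21.5 with the SUDS3 siRNA. It fell by 0.30 ± 0.08 (adjusted p = 0.0022) and by 0.64 ± 0.08 (adjusted p = 2.0e-08), and the 3 groups did not overlap.

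MYLIP, a ubiquitin ligase that lowers lipoprotein receptors at the cell surface, gave 15.4, 15.9 and 18.9 CPM in controls, 19.5, 18.7 and 19.5 with the PHF12 siRNA and 22.2, 23.7 and 22.2 with the SUDS3 siRNA. Control library 3 overlapped the PHF12 libraries, and the SUDS3 libraries were the highest. MYLIP rose by 0.44 ± 0.09 with the SUDS3 siRNA (edgeR adjusted p = 8.5e-05). With the PHF12 siRNA it was at 0.21 (adjusted p = 0.072) and passed without control library 3 (0.30, adjusted p = 0.0114) and under upper-quartile scaling (0.24, adjusted p = 0.0294). Its difference of 0.24 between the siRNAs (adjusted p = 0.023) ended without PHF12 library 2 (adjusted p = 0.0787) or SUDS3 library 2 (0.0895) and under upper-quartile scaling (0.108).

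Neighbouring parts of the pathway were read from 4 further lists, whose counts stand beside 31.9% of all tested genes passing for PHF12 knockdown and 38.7% for SUDS3 knockdown. Of 13 tested lipogenic genes that SREBPs also drive, 6 fell and 1 rose with the PHF12 siRNA, and 4 rose and 4 fell with the SUDS3 siRNA (53.8% and 61.5% passing). SCD, the stearoyl-CoA desaturase, gave 831.1, 850.5 and 819.6 CPM in controls and 547.4, 532.5 and 532.2 with the PHF12 siRNA (-0.63, edgeR adjusted p = 9.1e-21). With the SUDS3 siRNA SCD was at 906.1, 916.8 and 917.4 CPM (0.13, adjusted p = 8.6e-05), so the 3 groups were separate. ELOVL5, a fatty acid elongase, fell by 0.90 with the PHF12 siRNA (adjusted p = 6.4e-21), from 177.7 to 184.4 CPM to 95.3 to 97.7. Of 12 genes for degradation and anchoring of the sterol sensors, 6 fell and 2 rose with the PHF12 siRNA, and 1 fell and 4 rose with the SUDS3 siRNA (66.7% and 41.7% passing). PAQR3, which tethers SCAP at the Golgi, went from 62.2 to 66.0 CPM to 25.45 to 31.3 with the PHF12 siRNA (-1.18, adjusted p = 8.6e-18). RNF139, a ubiquitin ligase of the endoplasmic reticulum, fell by 0.74 with the SUDS3 siRNA (adjusted p = 1.2e-11), and ERLIN1, part of a complex for degradation there, rose by 0.55 (adjusted p = 7.5e-11).

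Of 17 tested genes for sterol efflux, uptake and lysosomal release, 5 rose and 5 fell with the PHF12 siRNA, and 9 rose and 1 fell with the SUDS3 siRNA (58.8% passing in each). VLDLR, a lipoprotein receptor, went from 8.87 to 11.8 CPM to 3.875 to 5.28 with the PHF12 siRNA (-1.10, edgeR adjusted p = 1.4e-07). ABCA1, the sterol efflux pump, rose with the SUDS3 siRNA from 3.38 to 4.58 CPM to 5.34 to 6.37 (0.51, adjusted p = 0.014). That call ended without control library 1 (0.38, adjusted p = 0.107) or SUDS3 library 3 (0.46, adjusted p = 0.0576). In limma on log2 TPM the value was 0.12 (adjusted p = 0.076). The limma value also depends on the gene's TPM level, because a constant was added to TPM before logs were taken. Of 14 genes that use isoprenoids for ubiquinone, dolichol and protein prenylation, 1 rose and 4 fell with the PHF12 siRNA, and 3 rose and 4 fell with the SUDS3 siRNA. The passing shares of this list were 35.7% and 50%, the first near the 31.9% of all genes and the second above 38.7%.

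The 3′ UTR letters shown above were then set beside the fold changes. Among the members, 8 hold AATCAC, and 6 of these (MVK, LSS, DHCR7, STARD4, SREBF2 and SOAT1) fell with the PHF12 siRNA, with a median log2 fold change of -0.40 over the 8. The other 2 are CYP51A1 (-0.37) and INSIG2 (0.02), which did not pass. Of the 22 members without AATCAC, 8 fell and 2 rose, with a median of -0.05. Over all tested genes with a 3′ UTR, 38.2% of 4231 with AATCAC fell and 13.5% of 9542 without it. The 4 members with the largest decreases, SOAT1, DHCR7, LSS and SREBF2, all hold it. In the 4 other lists, 13 of 24 tested genes with AATCAC fell and 4 rose, and 8 of 32 without it fell and 5 rose. There TACATT split the falls with the PHF12 siRNA in the same way. Of 24 genes with TACATT 13 fell and 2 rose, and of 32 without it 8 fell and 7 rose. Those with AATCAC include PAQR3, VLDLR, SCD and ELOVL5, each of which also holds TACATT. SUDS3 holds AATCAC 2 times and TACATT 1 time. The 8 members' median with the SUDS3 siRNA was 0.07, and 3 of them rose and 1 fell, while 7 of the 22 without AATCAC rose and 8 fell. In the 4 other lists, 1 of 24 with AATCAC and 9 of 32 without it fell with the SUDS3 siRNA. Over all tested genes with a 3′ UTR the order was the reverse, with 26.1% of those with AATCAC and 21.6% of those without it falling.

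TACATT was found in 10 members, of which 4 fell (LBR, SC5D, STARD4 and MBTPS2) and 2 rose (INSIG2 and SCAP) with the SUDS3 siRNA, with a median of -0.02. Of the 20 members without it, 5 fell and 8 rose, with a median of 0.03. GGPS1 and PMVK, which fell by 0.54 each, do not hold TACATT. Over all tested genes with a 3′ UTR, 31.4% of 5632 with TACATT and 17.2% of 8141 without it fell. In the 4 other lists, 5 of 24 tested genes with TACATT fell and 10 rose, and 5 of 32 without it fell and 10 rose. With the PHF12 siRNA, 26.4% of all these genes with TACATT and 17.5% of those without it fell. Among the members, 5 of the 10 with TACATT and 9 of the 20 without it fell with the PHF12 siRNA. Since both 6-base sequences were picked from these fold changes, and longer 3′ UTRs hold any such sequence more often, these counts are a description, and the part of siRNA off-target pairing in the members' decreases was not tested.

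**Figure D4:**
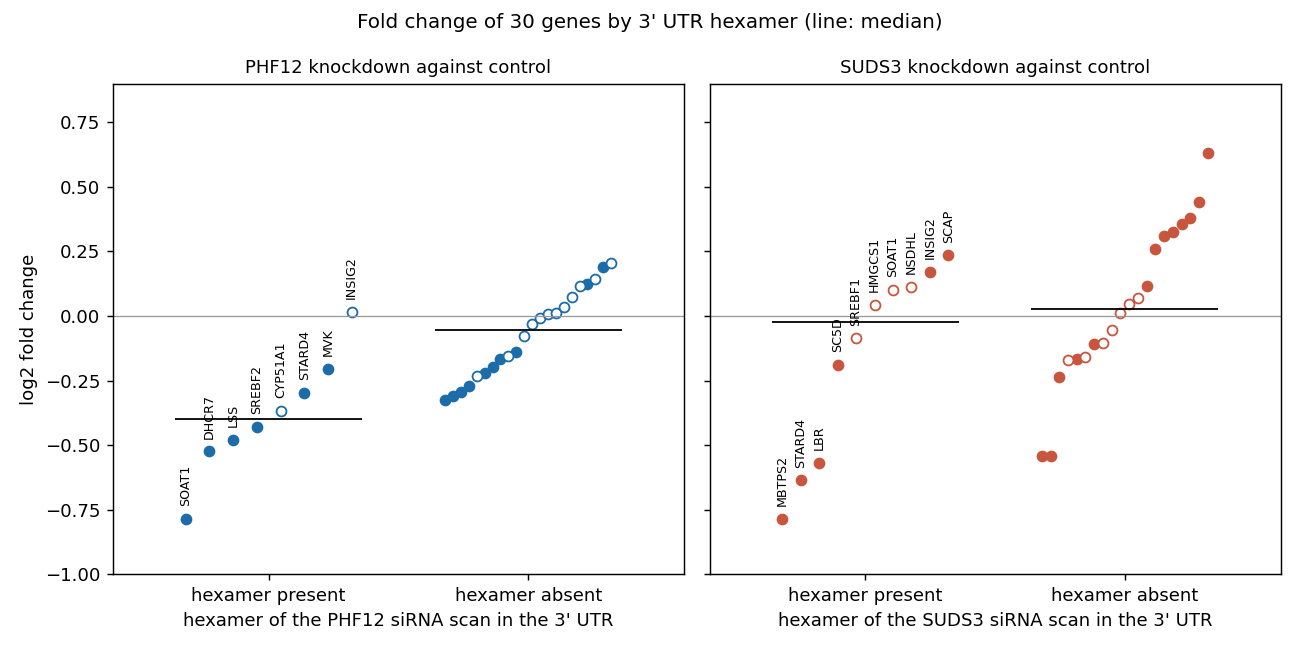
Log2 fold change of each of the 30 genes by whether its longest 3′ UTR holds a 6-base sequence, AATCAC for the PHF12 siRNA and TACATT for the SUDS3 siRNA. Both sequences were picked from these same fold changes. A line marks each median, and filled points have adjusted p under 0.05. With the PHF12 siRNA the medians are -0.40 with and -0.05 without, and with the SUDS3 siRNA -0.02 and 0.03.

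Promoter letters were set beside the same calls. With the PHF12 siRNA, 11 of the 19 members with a CCAAT box fell and 1 rose, and of the 8 members without one 2 fell and 1 rose. Over all tested genes with a window, 20.5% of 4948 with a CCAAT box fell and 19.6% rose, and 21.4% of 6573 without one fell and 16.9% rose. Among the 19, 6 rose and 6 fell with the SUDS3 siRNA, where 26.8% of all genes with the box rose and 21.5% fell. Of the 4 members with the core of the sterol regulatory element, 3 (IDI1, INSIG1 and SREBF2) fell with the PHF12 siRNA, and SC5D was at 0.01, while 22.5% of 908 tested genes with the core and 20.9% of 10613 without it fell. With the SUDS3 siRNA 1 of these 4 rose (INSIG1) and 2 fell (IDI1 and SC5D), where 23.8% of the 908 genes rose and 22.1% fell.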

How the data were processed

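RNA of 9 HEK293T libraries (3 per siRNA) was sequenced from TruSeq stranded poly-A libraries, per the labels' protocols. The authors deposited read counts per Ensembl gene, made with Trimmomatic 0.36, HISAT2 2.1.0 and HTSeq on GRCh38 per the submitters' processing notes (strand setting: not given in the sources used here). A deposited TPM table was used only to compare libraries within a gene. The length that count and TPM imply was constant per gene (within 5% in 100.0% of values, 11329 genes). That length was unrelated to GENCODE 29 exon length (within 10% for 5.21%). For limma a constant was added to TPM before logs were taken. A gene's TPM level, and so this length, therefore also enters its limma fold change. Calls that ended or passed in limma carry this limit. Gene symbols, lengths and 3′ UTRs came from GENCODE 29 and promoters from RefSeq.

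Counts were fitted over all tested genes in edgeR 4.0.16 (R 4.3.3) with the quasi-likelihood test, trimmed-mean scaling, 3 groups, edgeR's filter on low counts (minimum count 10) and Benjamini-Hochberg adjustment at 0.05; code was tested on simulated data. Alternatives were DESeq2 1.42.0, limma 3.58.1 on log2(TPM + 0.5), other scalings, no filter, 2 groups only, a replicate block, counts divided by 4 and each library left out. Members and lists were chosen with earlier results of these data known. All 30 members were named. Values per library were given for members that passed in a comparison with an absolute log2 fold change of at least 0.4, and for SREBF1, SREBF2, INSIG1, INSIG2 and SCAP, and genes of the other lists were named where they passed at 0.5 or more against control. ACAT2 here is the thiolase, not the esterifying enzyme.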

Additional observations from a re-analysis of the deposited data

How the results depend on the processing

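No result changed from higher to lower among the calls. Under upper-quartile scaling 5 members rose with the PHF12 siRNA and the members' median log2 fold change was -0.12, against 2 and -0.16 in the reported fit. In the same setting the median was -0.00 (-0.0019) with the SUDS3 siRNA and 0.11 (0.114) between the siRNAs. That last median was 0.172 with 2 groups only, 0.167 with counts divided by 4 and 0.171 with limma on log2 TPM, against 0.180. Leaving out 1 library gave 2 to 4 members that rose and a median of -0.192 to -0.147 with the PHF12 siRNA, a median of 0.0035 to 0.0412 with the SUDS3 siRNA, lowest without SUDS3 library 1, and 0.164 to 0.197 between the siRNAs. The cause of these shifts was not tested. Deviations of same-numbered libraries correlated at -0.04 to 0.04, as did the others, so no shift shared by replicate number was seen. Whether same-numbered libraries were prepared together cannot be told from these correlations. With a replicate block, 5848, 7073 and 7981 genes passed in the 3 comparisons, against 5776, 7004 and 7937, and GGPS1 with the PHF12 siRNA and NSDHL with the SUDS3 siRNA passed. Without the block they did not. MBTPS1 passed between the siRNAs under upper-quartile scaling (-0.12, adjusted p = 0.00621) and INSIG2 in limma (0.16, adjusted p = 0.0265). With 3 libraries a group and counts in multiples of 4, changes of low genes such as CYP51A1 and HSD17B7 are the least precise.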
